A study of Homo sapiens with 10 samples.

Results

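The enzymes that turn squalene into cholesterol were followed by 9 genes, SQLE, LSS, CYP51A1, TM7SF2, MSMO1, NSDHL, EBP, SC5D and DHCR7, taken by gene name from a count table of 32738 genes. All 9 were in the table, and 8 of them were among the 12733 genes with enough counts to be tested. CYP51A1 was not, with 1 count in total. HepG2, an established human hepatoma cell line that keeps many hepatocyte functions, was kept for 17 h in growth medium (control) or in medium with 2 µg/ml tunicamycin, an inhibitor of N-linked glycosylation that causes endoplasmic reticulum (ER) stress. RNA was sequenced from its 3′ ends (QuantSeq), in 5 control and 5 tunicamycin libraries from experiments on separate days, so that each replicate number pairs a control with a tunicamycin library. All libraries come from this one cell line, and the stress was given by a single agent at a single dose and time.

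Cholesterol is built in the ER from squalene by a chain of enzymes that oxidize, cyclize, demethylate and reduce the sterol ring. Most genes of the chain are known targets of SREBP-2, a membrane-bound transcription factor that is cut loose from its ER anchor when sterols run low. In the liver, the product goes into membranes, lipoproteins and bile acids.

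Of the 8 tested genes, edgeR's quasi-likelihood test called 7 lower with tunicamycin and 0 higher, at a threshold of 0.05 on p-values adjusted over all genes by the Benjamini-Hochberg method. In the same fit, 16.6% of all tested genes were lower and 17.6% were higher. Those shares stand for 2116 and 2237 genes, which became 2570 lower and 1774 higher genes with library size as the only scaling, where the 7 and 0 did not change. None of the 8 was higher at an unadjusted p under 0.05 either, and DESeq2 also gave 7 lower and 0 higher. A decrease of more than 2-fold was found for 5 of the 8, against 3.65% of all tested genes. For 7 of the 8, every tunicamycin library lay below every control library, which held for 11.9% of all tested genes. By mean control level the 8 genes lay at percentiles 74.4 to 97.1 of all tested genes. The shares for all tested genes therefore also cover many genes with fewer counts. The median log2 fold change of the 8 genes was -1.23, and that of all tested genes was -0.003. The gene that stood apart was SC5D, the sterol C5-desaturase, whose groups overlapped. Bulk RNA does not tell fewer expressing cells from less RNA per cell.

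Library totals ran from 4242538 to 4888292 counts in control and from 2234682 to 5029864 in tunicamycin, with the lowest in tunicamycin replicate 5. The mitochondrial share of counts was 22.7% to 25.2% in control and 18.3% to 28.8% in tunicamycin. The 9 enzymes together had a summed level of 1133 to 1227 CPM (counts scaled by the library total) in control libraries and 451.5 to 522.4 in tunicamycin libraries. The 9 hepatocyte markers had counts in every library, summing to 20828 to 23633 CPM in control and 13674 to 16534 in tunicamycin. Of the markers of other cell types, PTPRC, CD3E, LUM and DCN were at 0 in all libraries, the endothelial markers summed to at most 0.236 and 5.05 CPM in control and tunicamycin, the leukocyte markers to 8.39 and 5.33, and the fibroblast markers to 0 and 1.06. The part of these shifts in the results was not tested. The ER stress genes HSPA5, DDIT3 and HERPUD1 were higher with tunicamycin, with log2 fold changes of 2.97, 1.42 and 2.78, and their groups did not overlap.

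SQLE, squalene epoxidase, puts the first oxygen on squalene and is a rate-limiting step of the chain. Its normalized counts, which are counts scaled to a common library size, were 1166, 1273, 1232, 1225 and 1164 in the control libraries, by replicate number from 1 to 5, and 432, 438, 403, 408 and 333 in the matching tunicamycin libraries. The groups were far apart and the control libraries lay close together, with a coefficient of variation of 3.85%. The log2 fold change was -1.58 ± 0.087 (SE, n = 5 each, edgeR adjusted p = 1.10e-10), leaving 33.4% of the control level.

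LSS (chr21:46188141-46228824 on GRCh38, minus strand), lanosterol synthase, folds squalene epoxide into the first sterol, lanosterol. Its normalized counts were 221, 218, 185, 207 and 229 in control and 69.3, 68.5, 87.9, 59.1 and 84.7 in tunicamycin. Control replicate 3 was the lowest of its group and tunicamycin replicate 3 the highest of the other, and no libraries overlapped. The log2 fold change was -1.52 ± 0.13 (SE, n = 5 each, edgeR adjusted p = 2.71e-08). The 2 shallowest tunicamycin libraries held 43 and 42 counts of LSS, so that this gene had the fewest counts behind it among the 7. A gene on the opposite strand, ENSG00000228404, shares 448 exonic bases with LSS, 353 bases from its 3′ end, and had 0 counts in all libraries.

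CYP51A1 (chr7:92084987-92134803 on GRCh38, minus strand), lanosterol 14-alpha-demethylase, takes the first methyl group off lanosterol. The table lists 1 count for it, in control replicate 3, and 0 in the other 9 libraries, so that no change can be given. A count of 0 allows up to 3 counts in a library and covers counting error only. Of its neighbours on the chromosome, AKAP9 had 473 to 1661 counts and KRIT1 110 to 314 counts per library, while LRRD1 also lacked counts, with 0 in all libraries. In the GENCODE annotation of GRCh38, CYP51A1 shares 68.2% and 67.8% of its exonic bases with 2 other genes on the same strand, ENSG00000285772 and ENSG00000289027, neither of which is a row of the table. AKAP9, on the opposite strand, shares 108 exonic bases with CYP51A1, 508 bases from its 3′ end. How reads that fall on several genes were counted, and whether strand was used, is not given in the sources used here, and the part of these overlaps in the missing counts was not tested.

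TM7SF2 (chr11:65111845-65116384 on GRCh38, plus strand) encodes a sterol C14-reductase, which reduces the double bond left by the demethylase. Its normalized counts were 552, 550, 587, 543 and 674 in control and 282, 276, 350, 346 and 287 in tunicamycin. Control replicate 5 was the highest library and the groups did not overlap. TM7SF2 had a log2 fold change of -0.91 ± 0.099 (SE, n = 5 each, edgeR adjusted p = 9.34e-07), a smaller decrease than those of SQLE and LSS.

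MSMO1 (chr4:165327667-165343164, plus strand) and NSDHL (chrX:152830967-152869729, plus strand; both on GRCh38) act together on the methyl groups at sterol carbon 4, MSMO1 as the oxidase and NSDHL as the decarboxylating dehydrogenase. MSMO1 had 529, 511, 601, 544 and 563 normalized counts in control and 227, 225, 224, 301 and 254 in tunicamycin. Of the tunicamycin libraries, replicate 4 was the highest, and it still lay well below the lowest control library. The log2 fold change of MSMO1 was -1.17 ± 0.098 (SE, n = 5 each, edgeR adjusted p = 3.57e-08). NSDHL had 366, 315, 297, 271 and 277 normalized counts in control and 173, 165, 214, 173 and 129 in tunicamycin. Its groups came closest to each other among the 7 lower genes, without overlap, and its log2 fold change was -0.82 ± 0.12 (SE, n = 5 each, edgeR adjusted p = 4.03e-05). Within days, its log2 ratio lay between -1.10 and -0.47.

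EBP (chrX:48521799-48528716 on GRCh38, plus strand), the sterol isomerase also known as emopamil binding protein, moves a ring double bond. It had 1468, 1306, 1255, 1351 and 1509 normalized counts in control and 557, 578, 625, 496 and 559 in tunicamycin. Both groups were tight, with coefficients of variation of 7.81% and 8.26%. For EBP, the log2 fold change was -1.29 ± 0.088 (SE, n = 5 each, edgeR adjusted p = 1.97e-09). The annotation of GRCh38 places another gene, ENSG00000286268, on 644 of its exonic bases on the same strand, and that gene is not a row of the table.

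SC5D (chr11:121292681-121313410 on GRCh38, plus strand) puts a double bond into the ring, which makes the diene that DHCR7 then reduces. Its normalized counts were 120, 181, 227, 279 and 242 in control and 165, 203, 266, 297 and 238 in tunicamycin. Replicate 1 was the lowest library and replicate 4 the highest in both conditions, and the spread between days was wider than the difference between conditions. The coefficients of variation, 29.2% in control and 22.2% in tunicamycin, compare with 3.85% to 12.5% and 8.26% to 17.8% for the other 7 genes. The log2 fold change was 0.15 ± 0.19 (SE, n = 5 each, edgeR adjusted p = 0.566), and the tunicamycin library was the higher one on 4 of 5 days. On the log2 scale of single libraries, the difference was 0.19 with a 95% interval of -0.45 to 0.77, obtained from the exact permutation test (two-sided p = 0.508). That interval covers increases as well as decreases. With the day as a block, the log2 fold change was 0.18 (edgeR adjusted p = 0.163). Without control replicate 1, its lowest library, the log2 fold change was 0.00099 (edgeR adjusted p = 0.997).

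DHCR7 (chr11:71428193-71452868 on GRCh38, minus strand), 7-dehydrocholesterol reductase, makes cholesterol in the last step of the branch through 7-dehydrocholesterol, the precursor of vitamin D. It had 498, 462, 517, 507 and 634 normalized counts in control and 139, 177, 158, 210 and 151 in tunicamycin. Control replicate 5 stood highest, and every tunicamycin library lay below every control library. The log2 fold change was -1.65 ± 0.12 (SE, n = 5 each, edgeR adjusted p = 3.75e-09), leaving 31.9% of the control level. Of all genes tested, 1.17% had a lower log2 fold change than DHCR7, compared with 1.31% for SQLE and 7.93% for NSDHL.

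**Figure D1:**
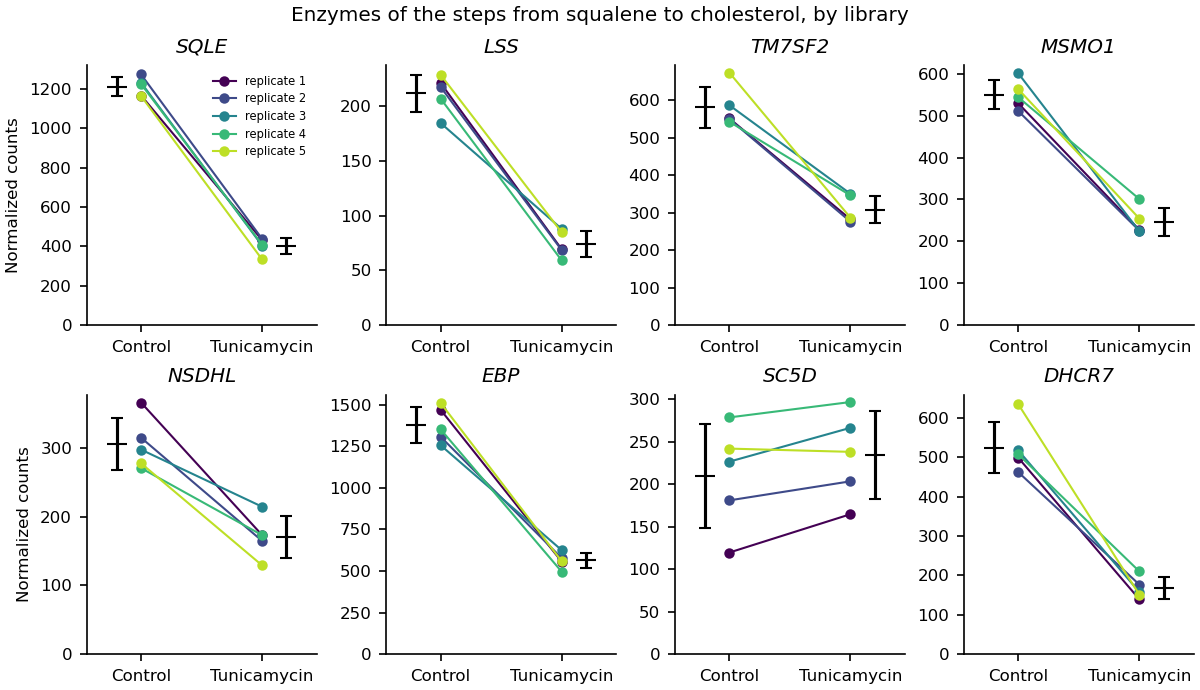
Normalized counts (vertical axes, starting at 0) of the 8 tested enzymes in control and tunicamycin libraries; lines join the libraries of a replicate number, and black marks give the mean ± SD (n = 5). The 2 conditions are apart in all panels but SC5D, where the lines stay in nearly the same order and 4 of 5 rise.

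The decreases recurred on every day. The median log2 ratio of the 8 genes within a day was -1.31, -1.18, -1.04, -1.06 and -1.33 for replicates 1 to 5, while that of all tested genes stayed between -0.021 and 0.017. On days 1 to 4, 7 of the 8 genes were lower with tunicamycin, and on day 5 all 8 were, SC5D with a log2 ratio of -0.023. The day with the strongest decrease differed between genes: it was replicate 5 for SQLE, TM7SF2, NSDHL and DHCR7, replicate 4 for LSS and EBP, and replicate 3 for MSMO1.

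**Figure D2:**
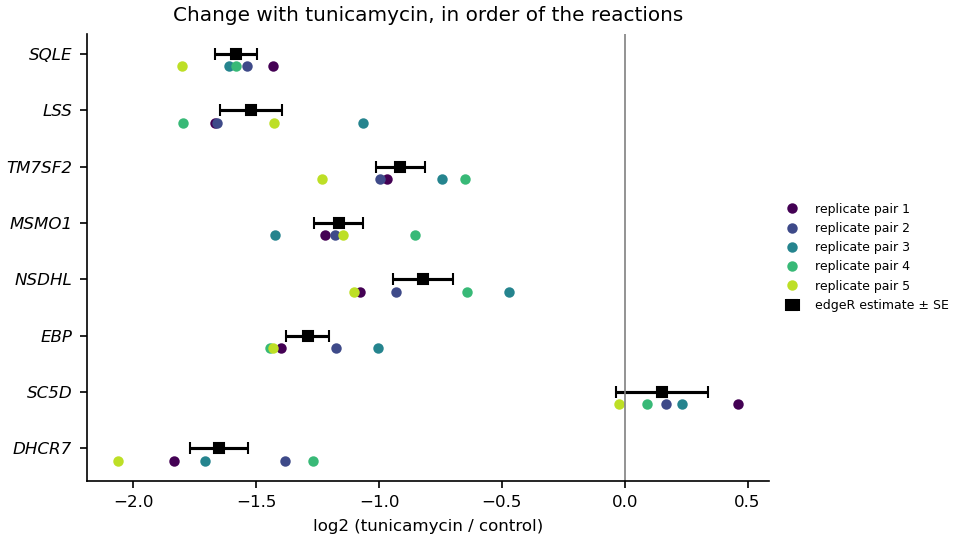
Log2 ratio of tunicamycin to control (horizontal axis) for the 8 tested enzymes from SQLE at the top to DHCR7 at the bottom; squares with bars are edgeR's estimates ± SE, and points are the ratios within the 5 replicate pairs. All points of 7 genes lie below 0, and those of SC5D lie between -0.023 and 0.46.

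Whether the enzymes fell by unequal amounts was tested from the log2 ratio of 2 genes within each library, which does not depend on how libraries are scaled. Of 28 pairs of genes, 19 changed their ratio between conditions at an adjusted p under 0.05 (two-sided exact permutation test over 10 libraries, Benjamini-Hochberg over the 28 pairs). All 7 pairs with SC5D were among them, as were 12 of the 21 pairs without it. For 14 pairs the exact permutation p was 0.00794, the smallest that 5 against 5 libraries can give (adjusted p = 0.0159). An exact sign-flip test of the 5 within-day changes cannot go below p = 0.0625, and with the days paired in that way 0 of 28 pairs passed, the lowest adjusted p being 0.0921. That count is set by the number of days.

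The ratio of SC5D to DHCR7, the enzymes of consecutive steps, rose by 1.84 ± 0.22 on the log2 scale (SE, n = 5 each, adjusted p = 0.0159, exact permutation test) and rose on 5 of 5 days. The ratio of SQLE to SC5D fell by 1.78 ± 0.28 on that scale (SE, n = 5 each, adjusted p = 0.0159, exact permutation test), lower on 5 of 5 days. TM7SF2 and DHCR7, both sterol reductases, also moved apart. Their log2 ratio rose by 0.73 ± 0.098 (SE, n = 5 each, adjusted p = 0.0159, exact permutation test), so that TM7SF2 fell less. MSMO1 fell less than DHCR7 by 0.49 ± 0.098 on the log2 scale (SE, n = 5 each, adjusted p = 0.0159, exact permutation test).

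In the order of the log2 fold changes, DHCR7, SQLE, LSS, EBP, MSMO1, TM7SF2, NSDHL and SC5D, 4 of the 7 pairs of neighbours were not told apart. The difference of log2 changes, that of the gene named first minus that of the other, was 0.06 between SQLE and DHCR7 (95% interval -0.30 to 0.42) and -0.07 between SQLE and LSS (-0.54 to 0.29), each from the exact permutation test. MSMO1 and EBP differed by 0.13 (-0.20 to 0.48), and TM7SF2 and NSDHL by -0.07 (-0.42 to 0.27). These intervals leave room for differences of about the size seen between other genes. With all libraries, the neighbours that passed were LSS and EBP (-0.23, -0.40 to -0.02, adjusted p = 0.0468, exact permutation test), MSMO1 and TM7SF2 (TM7SF2 against MSMO1 0.25, 0.05 to 0.49, adjusted p = 0.0392, exact permutation test), and NSDHL and SC5D (-1.03, -1.83 to -0.27, adjusted p = 0.0296, exact permutation test).

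Of the 19 pairs that passed, 14 kept their call when any 1 library was left out, and 5 lost it at least once. LSS and EBP lost it without any 1 of the 5 control libraries or of tunicamycin replicates 1 and 2, where the adjusted p was 0.0523 to 0.111 (exact permutation test). TM7SF2 and MSMO1 lost it without any 1 of control replicates 1 to 4 or tunicamycin replicates 1 to 3 (adjusted p = 0.0585 to 0.0889, exact permutation test), and NSDHL and EBP without any 1 of control replicates 1, 2, 4 and 5 or tunicamycin replicates 1 to 4 (0.0523 to 0.0702). The remaining losses were those of LSS and NSDHL without control replicate 2 or 4 (0.0523 and 0.0556) and of NSDHL and SC5D without tunicamycin replicate 2 (0.0523). Of the 9 pairs that did not pass, 3 gained a call: LSS and MSMO1 without control replicate 3 or tunicamycin replicate 3 (adjusted p = 0.0494 and 0.0417, exact permutation test), SQLE and EBP without control replicate 5 or tunicamycin replicate 4 (0.0494 and 0.0444), and EBP and DHCR7 without tunicamycin replicate 4 (0.0171). The SC5D pairs other than that with NSDHL, and the pairs of TM7SF2 with SQLE, LSS and DHCR7, kept their calls.

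**Figure D3:**
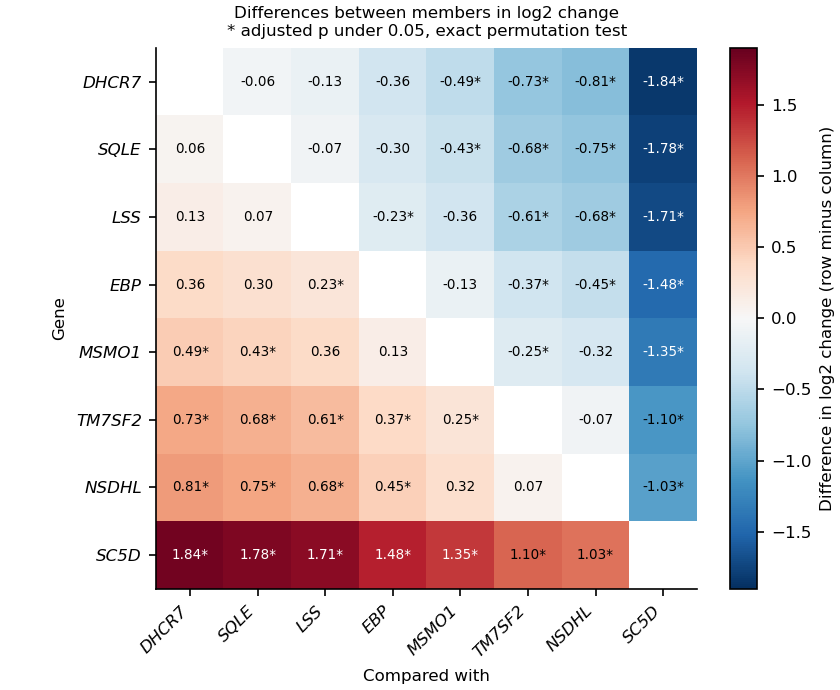
Difference in log2 change between each pair of the 8 tested enzymes, row gene minus column gene, with genes ordered by their log2 fold change and asterisks for an adjusted p under 0.05 in the exact permutation test. The SC5D row is marked throughout, from 1.03 to 1.84, and the DHCR7, SQLE and LSS cells carry no mark among themselves.

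Since the genes fell unequally, the make-up of their summed counts shifted. SC5D rose from 4.21% ± 1.20 of the summed counts in control to 10.7% ± 1.93 in tunicamycin (SD, n = 5 each). The highest control library had 5.66% and the lowest tunicamycin library 8.06%, so that the groups did not overlap. The share of SQLE went from 24.4% ± 1.67 to 18.6% ± 2.09 and that of DHCR7 from 10.5% ± 0.896 to 7.70% ± 1.03 (SD, n = 5 each). TM7SF2 went the other way, from 11.7% ± 0.692 to 14.2% ± 0.906 (SD, n = 5 each). These are shares of counts, and because they add up to a whole, a gene that stays level gains share when others fall.

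RefSeq promoter windows, the 250 bases before a start site (GRCh38.p14), were on hand for 8 of the 9 genes, all but SQLE, with 2 windows each for SC5D and DHCR7. CCAAT, the box bound by NF-Y, a known partner of SREBPs, was searched on both strands. It was found in 7 of the 8 genes, or 8 of their 10 windows, compared with 32.0% of all 35116 windows. NSDHL had 5, MSMO1 4, EBP 3, DHCR7 2 in one of its windows and 0 in the other, LSS and TM7SF2 1 each, SC5D 1 in each of its windows, and CYP51A1 0. At least 3 were found in 2.93% of all windows. The 2 SC5D windows overlap and share a single box, so that this box counts for 2 of the 8 windows. The following stretches, which stop where an annotated exon of the gene begins, show the genes with several boxes and SC5D for comparison. They are written 5′ to 3′ on the gene's strand with CCAAT or its reverse complement ATTGG in capitals, at chr4:165327419-165327666 for MSMO1, chrX:152830813-152830966 for NSDHL, chrX:48521558-48521798 for EBP and chr11:121292521-121292680 for SC5D (plus strand), and chr11:71448436-71448643 for DHCR7 (minus strand).
MSMO1: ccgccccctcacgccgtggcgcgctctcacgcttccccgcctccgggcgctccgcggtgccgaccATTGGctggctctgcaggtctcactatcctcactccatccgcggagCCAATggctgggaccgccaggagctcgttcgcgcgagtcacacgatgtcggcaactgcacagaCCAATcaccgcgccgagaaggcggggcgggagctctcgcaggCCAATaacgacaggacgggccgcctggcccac
NSDHL: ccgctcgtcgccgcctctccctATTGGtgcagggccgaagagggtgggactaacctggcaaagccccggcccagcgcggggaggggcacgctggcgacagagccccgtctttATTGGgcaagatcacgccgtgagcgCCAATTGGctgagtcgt
EBP: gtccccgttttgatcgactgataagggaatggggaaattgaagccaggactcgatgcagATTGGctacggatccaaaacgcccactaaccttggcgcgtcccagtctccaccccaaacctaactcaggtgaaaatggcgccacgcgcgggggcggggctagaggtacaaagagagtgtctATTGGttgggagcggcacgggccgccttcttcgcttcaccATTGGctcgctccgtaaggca
DHCR7: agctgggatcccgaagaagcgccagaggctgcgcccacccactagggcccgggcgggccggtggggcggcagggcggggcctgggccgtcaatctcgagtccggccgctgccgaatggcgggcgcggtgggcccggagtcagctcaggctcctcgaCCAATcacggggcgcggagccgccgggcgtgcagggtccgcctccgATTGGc
SC5D: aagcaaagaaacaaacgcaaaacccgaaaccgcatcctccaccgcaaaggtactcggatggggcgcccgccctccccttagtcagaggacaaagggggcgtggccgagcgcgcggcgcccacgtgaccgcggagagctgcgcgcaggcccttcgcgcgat
In the NSDHL stretch, which holds 4 of the 5 boxes, a forward and a reverse box overlap in CCAATTGG. The remaining NSDHL box lies beyond the stretch, 84 bases before the start site. The single box of the SC5D window lies beyond the printed stretch, 56 bases before the start site.

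Other motifs were searched in the same windows. GGGCGG, the letters of the SP1 box, was in 7 of the 8 genes and in 42.6% of all windows. TCACNCCAC, a classical form of the sterol regulatory element, was in 0 of the 8 genes and in 0.883% of all windows, and TGATGNAAT, a form of the C/EBP-ATF composite site, in 0 and 0.888%. The ER stress response element was in 0 of the 8 and in 0.0740% of all windows. All were searched on both strands. A match describes letters only, and a missing match says nothing about the factor.

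The earlier part of the route, from acetyl-CoA to squalene, moved with the later one. Of 10 genes of the mevalonate arm, all tested, 7 were lower and 0 higher by edgeR's test (0 higher at an unadjusted p under 0.05 and with DESeq2), with a median log2 fold change of -1.12. The shares of all tested genes in the same fit were 16.6% lower and 17.6% higher. The lowest was HMGCS1, the synthase that feeds the pathway, at -1.53 ± 0.10 (SE, n = 5 each, edgeR adjusted p = 1.47e-09). PMVK, GGPS1 and IDI1, named after their values were seen, did not pass, with log2 fold changes of -0.05, -0.10 and -0.27.

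Of 5 other genes of the steps after squalene, 3 were lower and 0 higher by edgeR's test (0 higher at an unadjusted p under 0.05 and with DESeq2), beside 16.6% and 17.6% of all tested genes. ERG28 (listed as C14orf1), a scaffold of the demethylating enzymes, had a log2 fold change of -0.70 ± 0.19 (SE, n = 5 each, edgeR adjusted p = 0.00685), and FAXDC2, a hydroxylase-like protein, -2.09 ± 0.48 (adjusted p = 0.00221) on 100 counts in all libraries together. FAXDC2 passed the filter on low counts only through the control group, with a mean of 15.3 normalized counts against 3.10 in tunicamycin, where 1 library was at 0. It was not tested under the 2 stricter filters, and these and thinned counts left 2 lower genes in the list. LBR, the lamin B receptor, which carries the same C14-reductase activity as TM7SF2, did not pass, at -0.14 ± 0.098 (adjusted p = 0.299). HSD17B7, the 3-keto-reductase that follows NSDHL, was at -0.47 ± 0.24 (adjusted p = 0.134), and its counts are uncertain because a near-identical pseudogene exists.

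Genes that control the route were divided. Of the 12 tested genes of SREBP control and sterol uptake, 5 were lower and 1 was higher by edgeR's test, with a median log2 fold change of -0.19. Among all tested genes, 16.6% were lower and 17.6% higher. Those that were lower included NPC1L1, SREBF2 and NPC2, named after their values were seen, at -0.81, -0.65 and -0.47. SREBF2 encodes SREBP-2 itself. The 1 higher gene was MBTPS2, the site-2 protease that frees SREBPs, at 0.40 ± 0.14 (SE, n = 5 each, edgeR adjusted p = 0.0342), and it did not pass without any 1 of control replicates 1, 2 or 3 or tunicamycin replicates 2, 3 or 5. INSIG1, which holds SREBPs in the ER, was listed at 0 counts in all libraries. Whether this 0 comes from the cells or from how reads were counted was not tested.

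Among 6 genes that degrade sterol enzymes, 1 was lower and 2 were higher by edgeR's test, with a median log2 fold change of 0.10. Of all tested genes, 16.6% were lower and 17.6% higher, so these counts say little about the list as a whole. SYVN1, an ER-associated ubiquitin ligase also known as HRD1, rose by 2.05 ± 0.19 on the log2 scale (SE, n = 5 each, edgeR adjusted p = 1.44e-07). RNF145, another ubiquitin ligase, was at -0.34 ± 0.11 (adjusted p = 0.0270). The RNF145 call was lost without control replicate 3, tunicamycin replicate 2 or tunicamycin replicate 4, where 0 genes of the list were lower, and 1 gene in place of 2 was higher without control replicate 2.

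All 3 esterification genes were lower by edgeR's test, which held for 16.6% of all tested genes. SOAT1 and SOAT2, the acyltransferases that store cholesterol as esters, were at -0.39 ± 0.12 and -0.52 ± 0.14, and LCAT, the plasma acyltransferase, was at -0.67 ± 0.25 (SE, n = 5 each, edgeR adjusted p = 0.0180, 0.00834 and 0.0421). The count of 3 was not stable: whichever library was left out, 2 remained, or 1 without tunicamycin replicate 1. DESeq2, the replicate block and no filter also gave 2. Of the 3 tested genes of oxysterol and bile acid synthesis, 2 were lower and 0 higher: CYP8B1, the sterol 12-alpha-hydroxylase, at -2.72 ± 0.65 (edgeR adjusted p = 0.00295) on 58 counts in all, and CYP27A1, the sterol 27-hydroxylase, at -0.82 ± 0.10 (edgeR adjusted p = 4.19e-06). CYP8B1 passed the filter on low counts only through the control group, with a mean of 9.43 normalized counts against 1.15 in tunicamycin, where 2 libraries were at 0. It was not tested under the 2 stricter filters, which left 1 lower gene in this list, so its call is no support for the list's direction.

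The 6 tested genes of efflux and oxysterol response gave 0 lower and 0 higher by edgeR's test and by DESeq2, with a median of -0.24. By edgeR's test, 16.6% of all tested genes were lower and 17.6% higher. At an unadjusted p under 0.05, 1 was lower, SCARB1, the HDL receptor, named after its values were seen, at -0.24 ± 0.11 (edgeR adjusted p = 0.0936). Without control replicate 1, 2 of these genes were lower, and without tunicamycin replicate 4, 1 was. Of the 4 electron donors of the sterol oxidations, CYB5A, a cytochrome b5 that serves the desaturase step, was higher at 0.63 ± 0.17 (SE, n = 5 each, edgeR adjusted p = 0.00698), and CYB5B, its counterpart of the mitochondrial outer membrane, was lower at -0.52 ± 0.11 (adjusted p = 0.000805). POR and CYB5R3, the reductases that pass on the electrons, were at -0.17 and -0.20 and did not pass. Counts of 1 lower and 1 higher among 4 donors say little beside the shares of all tested genes. DESeq2 called 2 of the 4 donors lower and 1 higher. At an unadjusted p under 0.05 in edgeR's test, 3 were lower and 1 was higher. Without control replicate 1, 2 genes in place of 1 were lower.

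**Figure D4:**
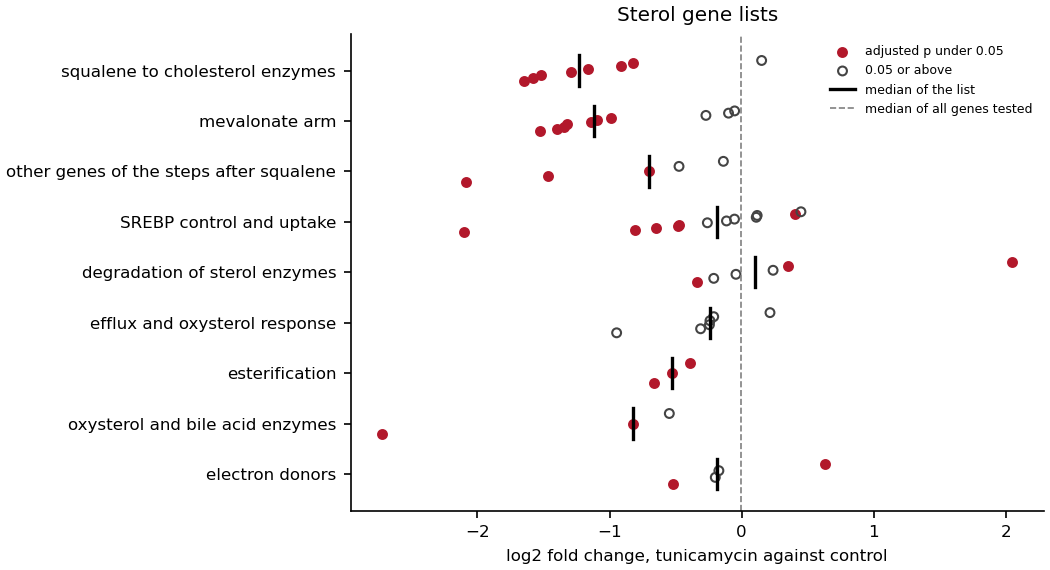
Log2 fold changes (horizontal axis, tunicamycin against control) of the tested genes of 9 sterol lists; filled points have an adjusted p under 0.05, open points do not, short vertical lines are list medians, and the dashed line is the median of all tested genes. The medians of the squalene to cholesterol enzymes (-1.23) and the mevalonate arm (-1.12) lie farthest to the left, and the degradation list holds the highest point (2.05).

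The genes whose within-day ratios lay closest to the median of the 8 enzymes were, among 7684 genes averaging 50 or more normalized counts, RFC4, a subunit of the replication clamp loader, PEG10, an imprinted gene derived from a retroelement, CD59, a complement inhibitor on the cell surface, FGA, the fibrinogen alpha chain, and B3GNT1, a glycosyltransferase. Their root mean square differences from that median over 5 days were 0.085, 0.11, 0.12, 0.13 and 0.14 on the log2 scale, and their log2 fold changes -1.26, -1.14, -1.30, -1.23 and -1.08.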

How the data were processed

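Reads had been mapped and counted by the authors on hg19 with Ensembl transcript definitions and the nf-core RNA-Seq pipeline at default settings. They deposited raw counts per gene. The aligner, counting program and strand setting are not given in the sources used here. Genes were kept by filterByExpr of edgeR 4.0.16 (R 4.3.3, minimum count 2, minimum total 10), scaled by TMM and tested with the quasi-likelihood test with condition only, adjusted by Benjamini-Hochberg over all genes at 0.05. Each count was brought to the mean TMM-scaled library size to give a normalized count. Ratios used a pseudocount of 0.5. Intervals (95%) hold every shift that the exact permutation test did not call. Depth was 2234682 to 5029864 counts per library, which limits genes with few counts.

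The members and lists were chosen with earlier results of these data known. All 9 members were named, then the lowest and highest called gene of each sterol list (all genes of lists of 5 or fewer), the 5 genes most like the members in within-day ratios, and HSPA5, DDIT3 and HERPUD1 as checks of the treatment. Results for some genes of the sterol lists are not reported here. The series text ties replicate numbers to days, and deviations of paired libraries from their group means, over 9707 genes, correlated at 0.36, 0.020, 0.076, 0.16 and 0.14. On simulated data, edgeR's test of this comparison called 197 of 200 genes with log2 changes between 1 and 2 in size among 12566 tested and 17 unchanged ones. The changed genes were drawn only from those above a minimum average count, and no day effect was simulated. Smaller changes and genes with few counts are therefore not covered. Alternatives were DESeq2 1.42.0 (with and without the day as a block), DESeq2 size factors, library size only, removal of mitochondrial genes, other filters, the replicate block, thinning to the smallest library, other pseudocounts, and leaving out each library. Gene positions and overlaps come from GENCODE release 44 on GRCh38, matched by Ensembl identifier, and promoters from RefSeq. No protein sequences were compared.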

Additional observations from a re-analysis of the deposited data

How the results depend on the processing

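Under 21 alternatives, including the replicate block, each of the 8 tested enzymes kept its direction and its side of the threshold, 168 fits in all, so that 7 were lower and 0 higher each time. Their median log2 fold change stayed between -1.31 and -1.19, and between -1.25 and -1.21 when each library was left out in turn. The fit without both libraries of replicate 5, the pair with the shallowest library, was chosen after seeing the data. SC5D ranged from 0.00099 to 0.33 with adjusted p-values of 0.163 to 0.997. With the replicate block, 2312 of all genes were lower and 2499 higher, against 2116 and 2237. With library size as the only scaling, 2570 were lower and 1774 higher, so that the direction with more genes turned, and the median of all genes moved to -0.083. Of the 28 pairs of enzymes, 15 to 20 passed when each library was left out, 14 with thinned counts, and 0 in the paired sign-flip test, whose smallest p is above the threshold. Counts for the smaller sterol lists moved by a gene or more under several settings: DESeq2 with the day as a block left 1 esterification gene and 0 higher genes of SREBP control, as did the removal of replicate 5. With library size only, 2 degradation genes were lower and 1 higher, 2 efflux genes and 3 electron donors were lower, and 0 SREBP control genes were higher. DESeq2 without the block called 2 electron donors lower in place of 1. The depth of the shallowest library, 42 counts of LSS, limits how finely the decreases can be ranked. None of the 20 groups of 5 values held a library far from the rest, where chance gives about 1.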
